A study of Bos taurus with 8 samples.

Results

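The transcripts of bovine blastocysts grown without added lipid were ranked by the signal of the control channel on 8 two-colour arrays. These are 8 of the 16 array channels of the series and 4 of its 8 RNA pools. The green channel was read where the control RNA carried the dye Cy3 and the red channel where it carried Cy5. All 43794 expression probes were kept. Of these, 21790 carry 1 gene symbol in the platform annotation and 22004 carry none, which left 15216 genes to rank.

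Holstein embryos were made by maturation, fertilization and culture in vitro from oocytes of slaughterhouse ovaries, and the control embryos received no treatment. Blastocysts were collected 170 hours after fertilization in pools of 10 embryos, and the RNA of each pool was amplified linearly with T7 polymerase and labelled with each dye in turn. The other channel of every array held blastocysts given serum lipids from the 8 to 16 cell stage (day 3) to day 7, which are not analysed here. Each pool mixes all cells of 10 whole embryos, so a smaller number of cells of one type and less RNA per cell of that type cannot be told apart.

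A blastocyst is a hollow ball of cells. Its outer epithelium, the trophectoderm, seals the cavity with tight junctions, pumps ions so that water follows, and in ruminants secretes interferon tau, the signal by which the conceptus maintains pregnancy. The inner cell mass keeps pluripotency factors such as POU5F1 and NANOG and also gives rise to the primitive endoderm, marked by GATA and HNF factors. By this stage most maternal messages stored in the oocyte have been replaced by transcripts of the embryo's own genome.

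Signal below is the mean spot intensity minus the local background, on the log2 scale and relative to the median probe of the array, so that 0 is the median probe and 1 unit is a doubling. A gene takes its brightest probe, and a pool value is the mean of its Cy3 and Cy5 array. Errors are SD over n = 4 pools. Signal depends on the probe as well as on the amount of RNA: in 3634 genes with several probes the brightest exceeded the next by a median of 1.13 on the log2 scale, and in 18.9% by more than 3. The ranks are therefore ranks of signal.

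The median probe had a net intensity of 209 to 302 units on the Cy3 arrays, where the local background was 20 to 21, and of 138 to 162 on the Cy5 arrays, where it was 36 to 51. The negative control spots had centred medians of -0.43 to -0.29. A gene was called above background if it exceeded the 95th percentile of those spots on at least 6 of the 8 arrays, which 10919 genes (71.8%) and 26444 probes (60.4%) did. The mean signals of the Cy3 and Cy5 arrays had a Spearman correlation of 0.927 over all probes, which share arrays and pools. The number of arrays limits the precision, and because nothing states that the pools came from separate fertilization runs, p-values apply only to these pools. Those of the pool test set differences between pools against the disagreement of the Cy3 and Cy5 array of a pool. They do not weigh them against the spread between pools.

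**Figure D1:**
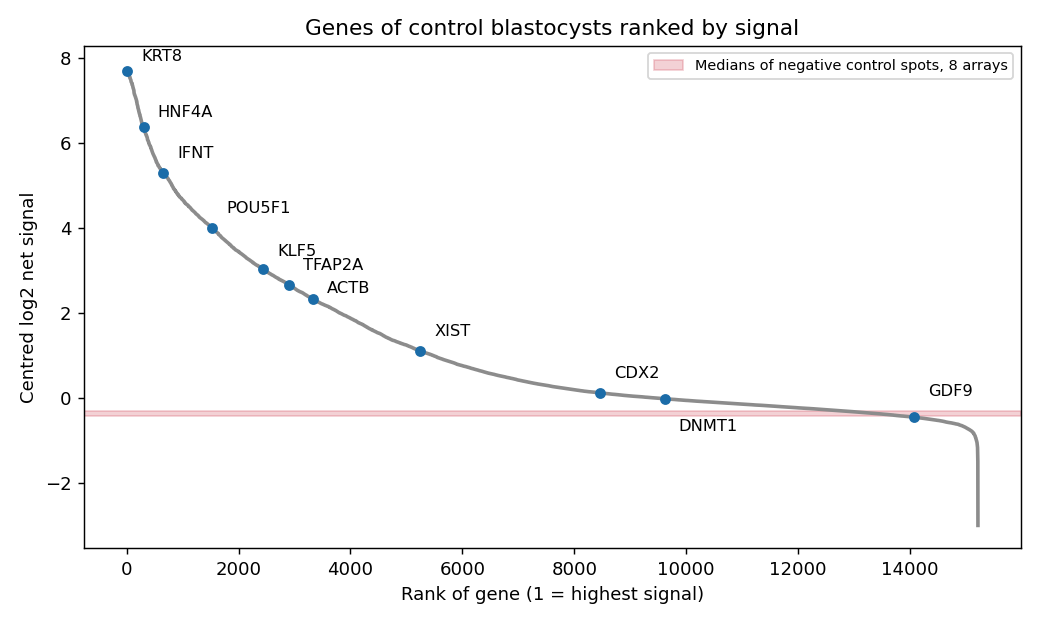
Centred log2 net signal (y axis) of the 15216 genes in order of rank (x axis), with 11 genes marked and the range of the negative control medians on the 8 arrays shaded. Signal falls from 7.74 to 4.02 over the first 10 percent of genes and then flattens: the median gene lies at 0.28, a little above the negative controls.

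The brightest genes were housekeeping genes of protein synthesis, the cytoskeleton and the epithelium. RPS16, a protein of the small ribosomal subunit, headed the ranking with 7.71, 7.55, 7.86 and 7.83 in pools 1 to 4 (7.74 ± 0.14). Its mean was 7.28 on the Cy3 arrays and 8.20 on the Cy5 arrays. The 30 genes of highest signal included 10 cytosolic ribosomal proteins, among them RPS13, RPS2, RPS21, RPS29, RPS3, RPL7, RPL37, RPL12 and RPLP0. Tropomyosin TPM4 (7.70 ± 0.16), gamma actin ACTG1 (7.68 ± 0.15) and keratin KRT8 (7.68 ± 0.19) stood beside them. So did creatine kinase CKB, the matrix protein fibronectin (FN1), the growth-related protein TPT1, the chaperones HSP90AA1 and HSPA8, the redox protein GLRX, VAT1, the respiratory subunit COX5B and the prolyl isomerase PPIA. The remaining 8 are known only by LOC identifiers (LOC513039, LOC786430, LOC525649, LOC614366, LOC783641, LOC100296205, LOC783462 and LOC781580), of which RefSeq's ARS-UCD2.0 table lists 7 as pseudogenes. Some of the 30 genes rank there on their brightest probe alone. The second probe lay at 0.09 for TPT1, 1.79 for RPL7, 3.24 for CKB and 3.82 for GLRX.

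The order within this top group was not tested. Its 30 genes spanned 0.13 on the log2 scale, with pool SDs of 0.12 to 0.19, and 124 genes lay within 0.5 of RPS16. Those SDs include a shift shared by most of these genes, which were lowest in pool 2. They therefore do not measure the difference between genes on the same arrays. PPIA, at rank 30, was 7.53, 7.446, 7.755 and 7.691 in pools 1 to 4, below RPS16 in each. The highest mean foreground of any expression probe on an array was between 37824 and 46151, and the signals of the top genes crowd close to it. On each array 0 to 18 of the 43794 probes had a saturated median pixel. Whether the crowding compressed differences was not tested. On the Cy3 arrays the 30 genes spanned 7.15 to 7.28 and on the Cy5 arrays 8.00 to 8.20. Of the genes in the top percent, 36 are LOC entries (23.7%, against 5.99% of all genes), 30 are cytosolic ribosomal proteins and 9 are respiratory chain subunits. Of the 437 probes in the top percent of all probes, 37.3% carry no symbol, so the brightest features are not all named.

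Gene groups separated widely, and the groups with the highest signal were those of protein synthesis and energy. Of 69 cytosolic ribosomal proteins, 58 lay in the upper decile of signal (10.0% of all genes) and the group's median percentile was 98.6. The lowest among those above background were RPS26 at 0.47 ± 0.28, FAU, a ribosomal protein fused to a ubiquitin-like domain, at 0.79 ± 0.47, and RPL29 at 1.98 ± 0.36. Translation factors had 18 of 24 in the upper decile, led by TPT1, EIF1 (7.58 ± 0.15) and EIF2S2, while EEF1A2, the elongation factor of muscle and neurons, lay at -0.07 ± 0.06. Respiratory chain and ATP synthase subunits had 35 of 44, with COX5B at 7.62 ± 0.12, COX5A at 7.60 ± 0.16 and ATP5F1A at 7.48 ± 0.11. Mitochondrial ribosomal proteins had 17 of 77, from MRPL53 at 7.29 ± 0.15 down to MRPS9, MRPL2 and MRPS35 at 0.39, 0.27 and 0.04.

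Structural genes had 13 of 23 in the upper decile, although the 2 cytoplasmic actins differed on their probes: ACTG1 was 7.63, 7.49, 7.82 and 7.77 and ACTB was 1.93, 2.08, 2.67 and 2.60. The tubulin TUBA1B was at 0.05 and the myosin MYH9 at 0.04.

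Genes of protein folding and turnover also had high signal. Chaperones had 15 of 23 genes in the upper decile, with PDIA6, a disulphide isomerase of the endoplasmic reticulum, at 7.41 ± 0.40. Proteasome subunits had 19 of 46, led by the core subunit PSMA6 (7.37 ± 0.17) and the regulatory subunits PSMC5 (7.10 ± 0.34) and PSMD2 (7.00 ± 0.22). PSMD2 fell from percentile 98.9 to 85.1 with the median of its probes. The tissue-specific and immune forms were near background: the testis subunit PSMA8, the thymus subunit PSMB11 (0.07 ± 0.09) and the immunoproteasome subunit PSMB10 (0.17 ± 0.05). Antioxidant genes had 12 of 27 in the upper decile, headed by thioredoxin reductase TXNRD1 (7.57 ± 0.21), PRDX6 (7.37 ± 0.23) and PRDX1 (6.83 ± 0.49). Cell cycle genes had 9 of 26, with the replication clamp PCNA at 6.74 ± 0.40, the mitotic cyclin CCNB1 at 6.19 ± 0.50 and the spindle checkpoint kinase BUB1 at 6.18 ± 0.25.

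**Figure D2:**
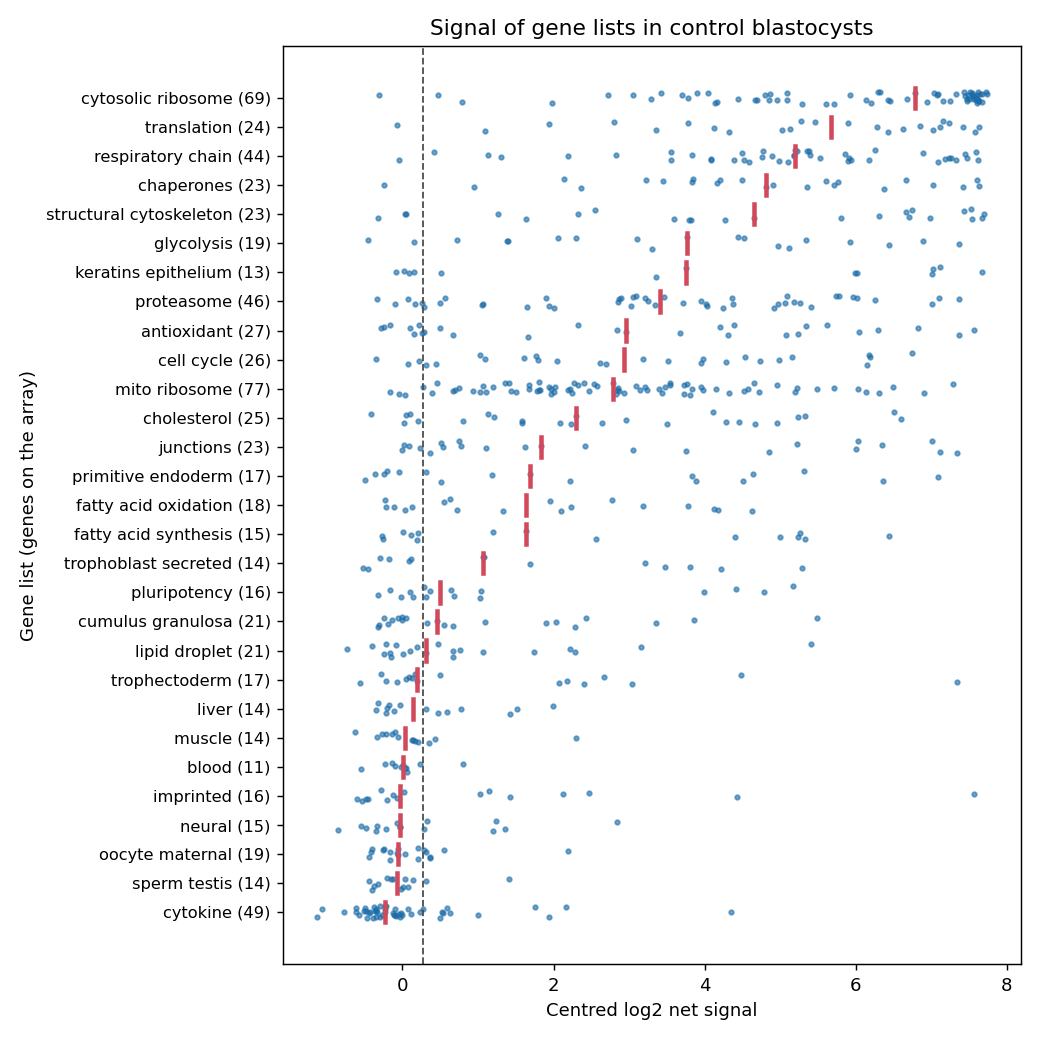
Centred log2 net signal (x axis) of every gene of 29 lists (y axis, number of genes on the array in brackets), each gene a point and each list's median a red bar, with the median of all genes (0.28) as a dashed line. Lists of protein synthesis and energy lie highest, and lists of liver, muscle, blood, neural, oocyte and sperm genes have medians between -0.07 and 0.14, near the median probe and above the negative controls, with few members above 2. The cytokine median is -0.23.

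Epithelial genes had high signal. Of 13 genes in the list of keratins and epithelial markers, all 13 were above background and 6 lay in the upper decile. The 13 include vimentin, VIM, which also belongs to the cumulus and granulosa list and lay at percentile 86.3. KRT8 was 7.51, 7.52, 7.83 and 7.85 in pools 1 to 4, and its partner KRT18 was 6.75, 6.86, 7.40 and 7.10. Pools 3 and 4 were the higher ones for both, over ranges of 1.26-fold and 1.57-fold, and the epidermal keratins KRT5 (0.09) and KRT14 (-0.09) were at the level of the median probe. Among junction genes, 22 of 23 were above background and 8 lay in the upper decile, led by alpha catenin CTNNA1 (7.34 ± 0.21), the desmosomal cadherin DSG2 (7.11 ± 0.59) and the tight junction protein CLDN4 (7.01 ± 0.21). Cingulin, CGN, another tight junction protein, was at 1.63 ± 0.16. E-cadherin, CDH1, a defining gene of epithelium, had a single probe at 0.03 ± 0.17, percentile 39.1.

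Genes of cavity formation gave a mixed picture. The sodium pump subunit ATP1B3 had 7.54, 7.25, 7.73 and 7.67 in pools 1 to 4, percentile 99.7, but its 3 probes disagreed, the lowest lying at -0.73, and with the median of its probes it fell to percentile 2.58. The pump subunit ATP1B2 was at 0.14 ± 0.04, and ATP1B1 was not above background (-0.25). The water and glycerol channel AQP3 was 3.58, 3.24, 4.42 and 3.63, highest in pool 3. Of the 14 genes of this list on the array, 8 were above background, and AQP7, a glycerol channel, was at -0.19.

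Trophectoderm regulators ranged from the top percent to background. TFAP2C, a transcription factor that acts early in trophectoderm formation in mice, was 7.02, 7.02, 7.65 and 7.67 in pools 1 to 4, percentile 99.3. Its 3 probes disagreed, the next lying at 2.89 and the lowest at 1.357, and with their median TFAP2C fell to percentile 88.55. GATA2 had 4.46, 4.67, 4.47 and 4.30, with all pools within 0.37 of each other, and KLF5 had 2.57, 2.44, 3.70 and 3.43. With the median of its 3 probes KLF5 fell from percentile 83.99 to 69.37. CDX2, the factor used most often to mark trophectoderm, was 0.51, 0.22, -0.09 and -0.13, above background on 7 of the 8 arrays, at percentile 44.4. GATA3 was at 0.49 ± 0.09, and ELF5, a factor of later trophoblast, at 0.04 ± 0.05. CDX2, GATA3 and ELF5 were each read by 1 probe. Of the 17 genes of the list, 15 were above background and 2 lay in the upper decile (11.8%, against 10.0% of all genes).

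Inner cell mass genes ranged widely, and those named here lie mostly at the upper and lower ends of the list, whose median was 0.50. KLF4, a reprogramming factor, was 5.29, 4.49, 5.40 and 5.53 in pools 1 to 4. NANOG was 4.77, 5.28, 4.22 and 4.89, and DPPA3, also known as STELLA and found in germ cells and early embryos, was 4.51, 3.74, 4.93 and 4.50. POU5F1, the core pluripotency factor, was 4.39, 4.09, 4.07 and 3.44. All pools of these genes lay far above the negative controls, and neighbours in this order differed by less than the larger of their SDs, which were 0.40 to 0.49. SOX2, which pairs with POU5F1 on DNA, was 0.28, 0.11, -0.02 and 0.17 on its single probe, at percentile 44.8, and SALL4 and FGF4 lay at -0.01 and 0.10. Of 16 genes in the list, 14 were above background and 3 were in the upper decile. DPPA3 fell from percentile 92.3 to 84.3 with the median of its probes.

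Of 17 primitive endoderm genes, 13 were above background and 5 lay in the upper decile. The adaptor protein DAB2 had 6.98, 7.15, 7.15 and 7.05 in pools 1 to 4, and the nuclear receptor HNF4A had 6.29, 6.41, 6.13 and 6.63. LAMC1, a chain of the laminin in basement membranes, was at 5.31 ± 0.26, GATA4 at 4.64 ± 0.33 and the growth factor receptor PDGFRA at 4.50 ± 0.30. SOX17, a defining factor of endoderm, was not above background, with -0.13, -0.20, -0.25 and -0.26. The 4 pools of DAB2 lay within an SD of 0.08. The probes of DAB2, HNF4A and LAMC1 were uneven. With the median of its 3 probes HNF4A fell from percentile 98.0 to 70.3, and LAMC1 fell from 95.8 to 75.2 with the median of its probes.

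**Figure D3:**
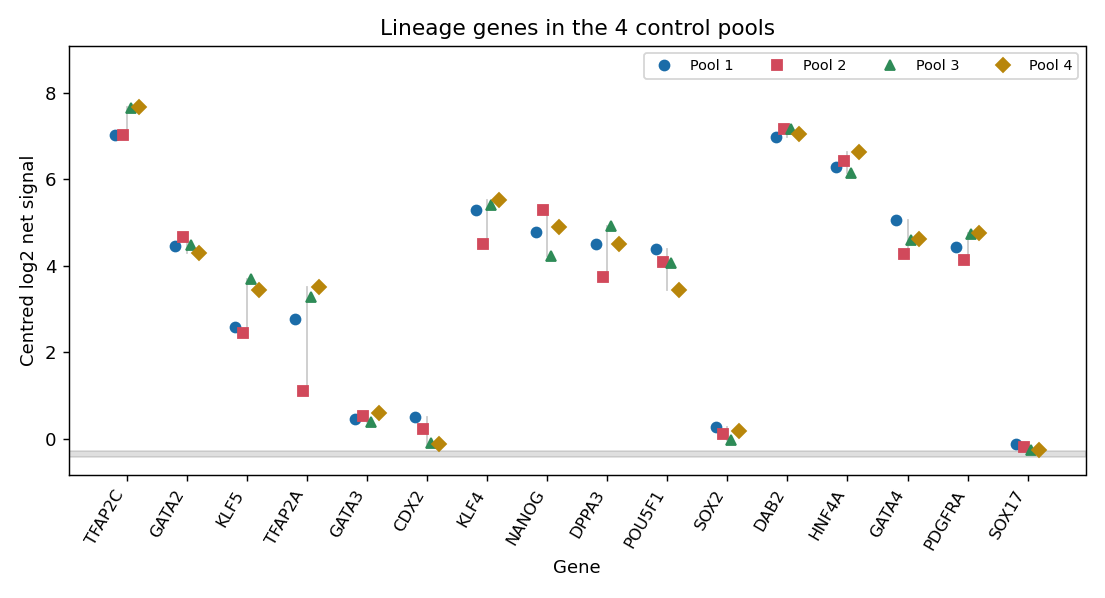
Centred log2 net signal (y axis) of 16 lineage genes (x axis), one symbol per control pool, in the order trophectoderm (TFAP2C to CDX2), inner cell mass (KLF4 to SOX2) and primitive endoderm (DAB2 to SOX17); the grey band is the range of the negative control medians. The defining genes CDX2, SOX2 and SOX17 lie next to the band, while TFAP2C, DAB2 and HNF4A lie between 6.13 and 7.67 in every pool.

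Secreted trophoblast products ranged from background to the upper decile. The probe named IFNT, for interferon tau, was 3.82, 5.51, 4.36 and 7.44 in pools 1 to 4, and the difference between pools is taken up below. PTGS2, which starts prostaglandin synthesis, was at 4.21 ± 1.05 and AKR1B1, a prostaglandin F synthase of the bovine uterus and conceptus, at 3.81 ± 0.95. Pregnancy-associated glycoprotein PAG11 and the Kunitz protein TKDP4, products of the placenta, were at 0.09 and -0.17. Of these 14 genes, 11 were above background and 2 lay in the upper decile. Of 16 interferon response genes the counts were 11 and 2. MX1 was at -0.11 ± 0.10, IFIT2 at 0.06, IFIT3 at 0.05 and IFI27 at 2.26 ± 0.94, while B2M (5.28 ± 0.50), the light chain of class I histocompatibility antigens, and IRF7 (4.21 ± 0.22) lay in the upper decile. PTGS2 fell from percentile 91.2 to 73.3 and B2M from 95.7 to 87.0 with the median of a gene's probes.

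Of 19 glycolysis genes, 18 were above background and 9 lay in the upper decile. The glucose transporter SLC2A3 was 7.32, 7.31, 7.50 and 7.36 in pools 1 to 4, percentile 99.4, with a pool SD of 0.09. Phosphoglycerate mutase PGAM1 (6.89 ± 0.38) and lactate dehydrogenase LDHB (6.44 ± 0.32) followed. The transporter SLC2A8 was at 0.73 ± 0.38. The platelet phosphofructokinase PFKP was at 0.16 and the muscle form PFKM at 1.39 ± 0.55. Other transporters of high signal were the amino acid carrier SLC7A5 (7.03 ± 0.21) and the copper transporter SLC31A1 (6.96 ± 0.33), although SLC31A1 fell from percentile 98.8 to 61.3 with the median of its 3 probes. Of all 315 solute carriers on the array, 22 (6.98%) lay in the upper decile.

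Lipid genes were read in 4 lists, with median percentiles of 78.0 for cholesterol, 71.5 for fatty acid synthesis, 71.4 for fatty acid oxidation and 50.9 for lipid droplets. HMGCS1, which makes the precursor of the mevalonate pathway, was at 6.59 ± 0.36, the lanosterol demethylase CYP51A1 at 6.51 ± 0.23 and the farnesyl diphosphate synthase FDPS at 5.33 ± 0.33. With the median of a gene's probes these fell from percentile 98.4 to 73.5 (HMGCS1), from 98.3 to 84.3 (CYP51A1) and from 95.9 to 80.6 (FDPS). Of 25 cholesterol genes, 24 were above background and 9 were in the upper decile, and LSS, MVD and the sterol sensor SCAP lay at 0.05, 0.02 and 0.10. Of 15 genes of fatty acid synthesis, 6 were in the upper decile. The stearoyl-CoA desaturase SCD was 5.98, 6.34, 6.43 and 7.02, and ACLY, which supplies cytosolic acetyl-CoA, was 5.14, 5.22, 5.43 and 5.55. Both were lowest in pool 1 and highest in pool 4. The fatty acid synthase FASN had a single probe at 0.93, -0.00, -0.29 and 0.12, above background on 6 of 8 arrays, and ACACA, the first enzyme of that pathway, was at 0.01.

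PLIN2, the main coat protein of lipid droplets in most tissues, was 5.06, 5.61, 5.5 and 5.47, the only one of 21 lipid droplet genes in the upper decile. The lipase PNPLA2 was at 3.16 ± 0.47 and PLIN3 at 2.28 ± 0.35, while the adipocyte protein PLIN1 (0.01) and the monoglyceride lipase MGLL (-0.09) were near the median probe. Of 18 genes of fatty acid oxidation, 3 lay in the upper decile: ECHS1 (4.63 ± 0.33), HADHB (4.18 ± 0.40) and CRAT (4.12 ± 0.47). CRAT fell from percentile 90.7 to 80.9 with the median of its probes. The carnitine palmitoyltransferase CPT1A, the entry step of mitochondria, was 0.11, 0.13, 0.09 and 0.19.

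Epigenetic regulators were uneven. The de novo methyltransferase DNMT3A was 7.32, 6.89, 7.65 and 7.58, percentile 99.3, and 78.3 with the median of its 3 probes. DNMT3B was at 2.65 ± 0.26 and the dioxygenase TET3 at 2.52 ± 0.50. The maintenance methyltransferase DNMT1 was -0.01, -0.03, 0.06 and -0.07 and its cofactor UHRF1 was 0.27, 1.21, -0.28 and -0.81. Of 16 imprinted genes 9 were above background (56.2%, with 71.8% of all genes) and 2 lay in the upper decile, GNAS (7.57 ± 0.19), the stimulatory G protein, and NDN (4.43 ± 0.54). GNAS fell from percentile 99.7 to 72.6 with the median of its 3 probes. SNRPN, of the splicing machinery, was at 2.47 ± 0.33. IGF2R was at 1.43 ± 0.16, and IGF2 was 0.36, 2.04, 1.28 and 0.43, with 3 probes of which the lowest lay at -1. Histone genes led with the variants H2AZ1 (4.96 ± 1.06), H2AX (4.8 ± 0.39) and H2AZ2, and of the BCL2 family and caspases BNIP3 (5.87 ± 0.33) and MCL1 (5.01 ± 0.11), the one promoting and the other opposing cell death, were highest.

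Marker lists of other cells were read in the same way. Above background were 9 of 14 hepatocyte products (64.3%), 9 of 11 blood genes (81.8%), 9 of 15 neural genes (60%) and 6 of 14 muscle genes (42.9%). The share of all genes was 71.8%. None of these lists had a member in the upper decile. Their medians lay between -0.04 and 0.14. The highest hepatocyte genes were prothrombin F2 at 1.99 ± 0.44, fibrinogen FGB at 1.52 ± 0.26 and CPS1 of the urea cycle at 1.42 ± 0.17. With the median of a gene's probes FGB fell from percentile 70.26 to 20.98 and CPS1 from 69.43 to 43.67. Albumin, ALB, was -0.31, -0.29, -0.32 and -0.38, above background on 1 of 8 arrays. Of the globins, HBA was at 0.80 ± 0.30 and HBB at -0.10 ± 0.07, above background on 8 and 6 arrays. Of 19 oocyte genes 13 were above background and 0 were in the upper decile, GDF9 was -0.44, -0.45, -0.52 and -0.37, and TLE6, a maternal-effect gene, was highest at 2.20 ± 0.22. Sperm genes had 0 of 14 in the upper decile, with the protamine PRM1 highest at 1.41 ± 0.25.

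Cumulus and granulosa genes, from the cells that surround the oocyte, had 15 of 21 above background (71.4%, with 71.8% of all genes). In the upper decile was 1, the protease inhibitor SERPINE2 (5.49 ± 0.41). The defining hormone receptor and hormone genes of granulosa cells, FSHR, LHCGR, INHA and AMH, lay between -0.33 and -0.01, and FSHR and INHA were near the median probe. STAR, the carrier of cholesterol to the first enzyme of steroid hormone production, was at 2.29 ± 0.25 and the aromatase CYP19A1 at 0.55 ± 0.26. Collagen COL1A2 was 3.70, 3.85, 4.67 and 3.23 and vimentin, VIM, was 2.21, 3.39, 5.10 and 2.74. Both were highest in pool 3. The summed signal of the 21 genes was 6.47 to 6.70 in the other pools and 7.36 in pool 3, on the log2 scale.

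Sex-linked genes were read in mixed pools. XIST, the RNA that silences one X chromosome in female cells, was 0.84, 0.75, 1.00 and 1.86 in pools 1 to 4, and the X-linked HPRT1 was 6.12, 6.07, 6.40 and 7.25. Both were highest in pool 4. Of the Y-linked genes, EIF1AY was -0.04, 0.56, 0.78 and -0.19 and DDX3Y was 0.20, 0.28, 0.17 and 0.11. EIF1AY was lowest in pools 1 and 4, whereas DDX3Y varied by 0.17 over the pools. XIST passed the test between pools described next (limma moderated F, adjusted p = 0.0116), as did HPRT1 (adjusted p = 0.00479) and EIF1AY (adjusted p = 0.0385), and DDX3Y did not (adjusted p = 0.545). Without pool 4 XIST and HPRT1 did not pass (adjusted p = 0.216 and 0.254), and EIF1AY did not pass without pool 1, 2 or 4 (adjusted p = 0.0605 to 0.0632). In the whole list 6 of 8 genes above background were called (75%, against 42.9% of all genes). Highest in pool 4 were 3 of them, as were 38.5% of all called genes, and pools 1, 2 and 3 were each highest in 1. The sex of the embryos was not tested.

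The next question was which transcripts differed between control pools by more than the Cy3 and Cy5 arrays of the same pool did. In limma, with a dye term and a moderated F over the 4 pools, 9435 of 26444 probes above background (35.7%) passed a Benjamini-Hochberg adjusted p of 0.05, and of the genes, through their brightest probe, 4688 of 10919 (42.9%). A range between pools of at least 2-fold was found for 1809 of them (16.6% of the genes tested) and of at least 4-fold for 90 (0.824%). The pool, its amplification and the position of its arrays on the slides share a number and cannot be told apart.

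Pools 1 and 2 carried Cy3 on the first slide and Cy5 on the second, and pools 3 and 4 the reverse, so a dye effect that differs between slides cannot be told apart from a difference between these pairs of pools. Most calls ran that way: 69.4% of the called genes were highest in pool 3 or 4 and 72.1% were lowest in pool 1 or 2, against 52.8% and 56.9% after quantile normalization. Comparing only pools of the same orientation, 1 with 2 and 3 with 4, left 1752 genes past the threshold (16.0%). All of these were also called over the 4 pools. That comparison is given below for several of the lists and genes, but not for every gene.

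The share of genes called depended on signal. In the top percent of genes 14.5% were called, and their median pool SD was 0.17. Between the 75th and 90th percentiles 65.5% were called, and the median SD was 0.38. Dim genes were seldom called: 53.3% between the 50th and 75th percentiles and 11.7% between the 25th and 50th. Cytosolic ribosomal proteins were called in 19 of 68 and oocyte genes in 0 of 13, against 42.9% of all genes. The oocyte list had a median percentile of 33.9, in the band where 11.7% of genes were called. Within 1 dye orientation these counts were 3 and 0. The signals of the top percent, ribosomal proteins among them, crowd near the highest signal of the arrays, and whether that compressed their spread was not tested. A small spread there therefore does not show that the amounts were equal between pools.

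**Figure D4:**
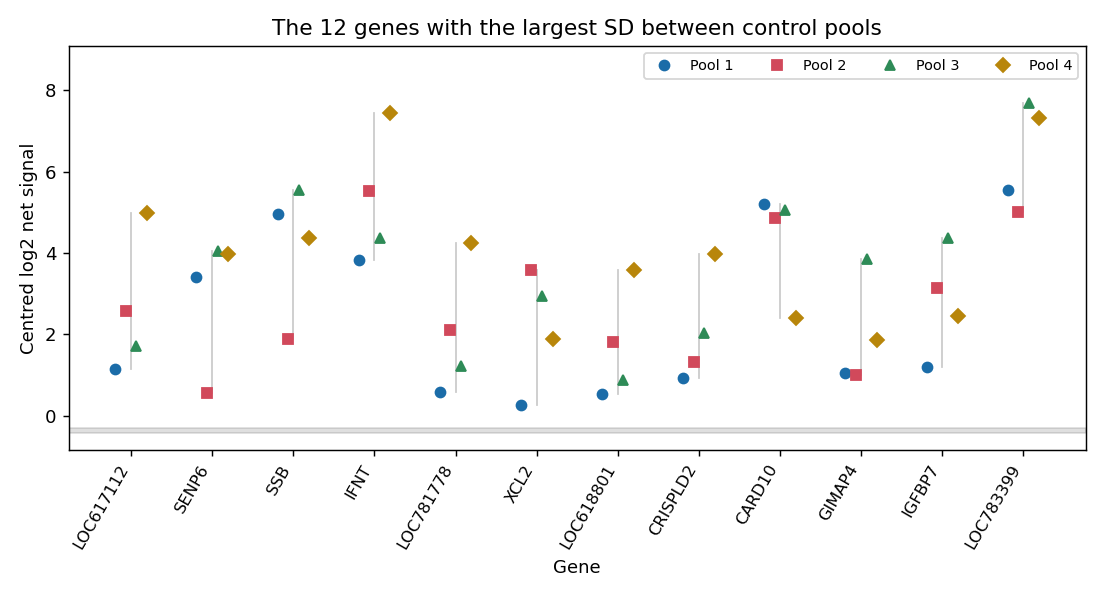
Centred log2 net signal (y axis) of the 12 called genes with the largest SD between pools (x axis), one symbol per control pool, with the range of the negative control medians as a grey band. LOC617112, IFNT, LOC781778 and LOC618801 share one order of pools, highest in pool 4 and lowest in pool 1, whereas SENP6 and SSB are low in pool 2 alone and CARD10 in pool 4 alone.

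Interferon tau was among the most variable transcripts. IFNT was 3.82, 5.51, 4.36 and 7.44 in pools 1 to 4, a 12.3-fold range (limma, adjusted p = 0.00196). Pool 4 was highest, pool 1 was lowest, and both pairs of one orientation differed (pool 2 against 1, adjusted p = 0.0108, and pool 4 against 3, adjusted p = 0.00566). The symbol IFNT matches more than one gene of the current annotation. Interferon genes are near copies of each other, so one probe may read several, and the probe sequences were not used here.

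The same order of pools was seen in further probes named only by LOC identifiers. LOC617112 was 1.14, 2.56, 1.71 and 4.99 (14.4-fold), LOC781778 was 0.58, 2.11, 1.23 and 4.24 (12.6-fold), and LOC618801 was 0.53, 1.82, 0.88 and 3.57 (8.26-fold). All 3 were highest in pool 4 and lowest in pool 1, and passed within 1 orientation. In the gene order of ARS-UCD2.0 they lie 38, 21 and 8 genes from IFNT2, one of the interferon tau genes. This neighbourhood was looked up after the values were seen. Within 60 annotated genes on each side of IFNT2 the array names 39 genes, of which 21 were above background and 10 were called (47.6%, close to the 42.9% of all genes). Of these, 8 were highest in pool 4, as were 38.5% of all called genes, and the 8 include the LOC genes that prompted the look-up.

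Among those 8, IFN-tau-c1 was 0.17, 0.52, 0.49 and 2.61, a 5.42-fold range (limma, adjusted p = 0.00281; 0.184 without pool 4). LOC618943 was 0.23, 0.74, 0.70 and 2.92 (adjusted p = 0.00218; 0.122 without pool 4) and LOC523509 was 0.11, 0.73, 0.49 and 2.35 (adjusted p = 0.0104; 0.0677 without pool 4). In all of them pool 4 stood alone. The interferons IFNB1, IFNK and IFNAA of the same stretch were not above background, and IFNW1 was -0.23, 0.05, -0.15 and 0.07 and did not pass (adjusted p = 0.288). IFNAC went the other way. It was above background on 8 arrays, with 1.18, 0.86, 0.75 and 0.65 in pools 1 to 4, and did not pass (limma, adjusted p = 0.084).

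Of 11 members of the secreted trophoblast list above background, 5 were called (45.5%, close to the 42.9% of all genes). Of these 4 were highest in pool 4, as were 38.5% of all called genes, and 3 were called within 1 orientation. PTGS2 was 3.22, 3.46, 4.74 and 5.44 (4.65-fold; adjusted p = 0.00196, and pool 4 against 3, adjusted p = 0.0245). AKR1B1 was 2.70, 3.45, 4.17 and 4.91 (adjusted p = 0.00441), and did not pass within 1 orientation (adjusted p = 0.0578). The Kunitz protein TKDP1, named after its values were seen, was 2.47, 2.33, 3.01 and 5.01 (6.43-fold; adjusted p = 0.00196, and pool 4 against 3, adjusted p = 0.00566). In each of these pool 4 was highest.

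The pools did not move together across lineage genes. TFAP2A, named after its values were seen and a relative of TFAP2C, was 2.77, 1.11, 3.27 and 3.50, low in pool 2 (adjusted p = 0.00197, and pool 2 against 1, adjusted p = 0.00661). POU5F1 was lowest in pool 4 (adjusted p = 0.00784; 0.193 without pool 4), NANOG was lowest in pool 3 (adjusted p = 0.0101; 0.102 without pool 3) and KLF4 and DPPA3 were lowest in pool 2 (adjusted p = 0.00684 and 0.00353; 0.426 and 0.0539 without pool 2). Each of these calls ended without 1 pool. Of 14 inner cell mass genes above background 9 were called (64.3%, against 42.9% of all genes). The list's median percentile was 55.4, and between the 50th and 75th percentiles 53.3% of all genes were called. Within 1 orientation 6 of the 14 were called, against 16.0% of all genes. TFAP2C, KLF5 and CDX2 were called over the 4 pools (adjusted p = 0.043, 0.00256 and 0.0089), but not within 1 orientation (adjusted p = 0.997, 0.216 and 0.158). PDGFRA was called (adjusted p = 0.00879), but not with quantile normalization (0.205), within 1 orientation (0.147) or without pool 2 (0.071). SOX2, GATA2, GATA3, DAB2, HNF4A and GATA4 did not pass, with adjusted p from 0.116 to 0.669.

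Several of the most variable genes were highest in pool 3. IGFBP7, a secreted binder of insulin-like growth factors, was 1.21, 3.13, 4.38 and 2.46 (8.99-fold; adjusted p = 0.00196). VIM was 2.21, 3.39, 5.10 and 2.74 (7.40-fold; adjusted p = 0.00267) and LUM, the collagen-binding proteoglycan lumican, was 1.41, 1.77, 3.93 and 1.03 (7.48-fold; adjusted p = 0.00532; 0.335 without pool 3). In all 3 pool 3 was highest, with pool 2 next. GIMAP4, a GTPase known from lymphocytes, was 1.06, 1.01, 3.84 and 1.86 (7.11-fold; pool 4 against 3, adjusted p = 0.00451). VIM and LUM belong to the cumulus and granulosa list. Of its 15 genes above background 9 were called (against 42.9% of all genes), 5 of them highest in pool 3 (as were 31.0% of all called genes), and 6 were called within 1 orientation (16.0% of all genes). The list's median percentile was 54.5, and between the 50th and 75th percentiles 53.3% of all genes were called. The other called genes of the list went differently, 2 highest in pool 2 and 2 in pool 4. SERPINE2 was also highest in pool 3, while FSHR, LHCGR, INHA and AMH lay between -0.40 and 0.16 in every pool. HSD3B1 was instead highest in pool 4, with 1.756, 0.8286, 1.959 and 3.054 in pools 1 to 4 (4.676-fold). The part that cells of that kind had in these values was not tested. Of 27 collagens above background 10 were called, 2 of them highest in pool 3.

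Further variable genes followed other patterns. SENP6, a protease that removes the modifier SUMO, was 3.41, 0.55, 4.05 and 3.97 (adjusted p = 0.00247; 0.278 without pool 2). SSB, the La protein that binds new RNA polymerase III transcripts, was 4.96, 1.90, 5.55 and 4.36, and its call (adjusted p = 0.0453) was lost within 1 orientation (adjusted p = 0.086) and with quantile normalization (adjusted p = 0.0541). Both were low in pool 2. XCL2, a chemokine, was 0.25, 3.58, 2.95 and 1.90, low in pool 1 (10.1-fold; adjusted p = 0.00198).

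CRISPLD2, a secreted protein, was 0.91, 1.32, 2.03 and 3.97, highest in pool 4 (8.31-fold; adjusted p = 0.00196). The adaptor CARD10 was 5.20, 4.87, 5.06 and 2.39, low in pool 4 alone, with 0.93 on its Cy3 array and 3.85 on its Cy5 array, and was not called without it (adjusted p = 0.272). LOC783399 was 5.54, 5, 7.68 and 7.31, split between the orientations, and was not called within 1 of them (adjusted p = 0.0697). Of the 90 genes with a 4-fold or larger range, 49 were highest in pool 4 and 28 in pool 3, and 78 were called within 1 orientation, 44 and 24 of them highest in those pools.

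Of 24 cholesterol genes above background 15 were called (62.5%, against 42.9% of all genes), and 12 of the 15 were lowest in pool 1, as were 35.6% of all called genes. The list's median percentile was 78.0, and between the 75th and 90th percentiles 65.5% of all genes were called. The share called is thus near that of genes of like signal. The list's members deviated from their own mean over pools by a median of -0.39 in pool 1, against -0.05 for all genes. With quantile normalization 13 were called and 8 of these were lowest in pool 1, with a median of -0.30. Within 1 orientation 7 of 24 were called, against 16.0% of all genes. Between pools 1 and 2 it was 5 of 24, against 1139 of all 10919 genes tested. HMGCS1 was 6.12, 6.60, 6.66 and 7.00, and its call (adjusted p = 0.0341) was lost with quantile normalization (0.0552), within 1 orientation (0.128) and without pool 1 (0.244). FDPS was 4.87, 5.33, 5.56 and 5.57 and behaved likewise (adjusted p = 0.0181, and 0.251 without pool 1).

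Some later and earlier steps, named after their values were seen, kept their calls in all 10 fits. MSMO1, a sterol demethylase, was 4.23, 4.78, 5.66 and 6.26 (4.08-fold; limma, adjusted p = 0.00198). ACAT2, which joins acetyl units for the pathway, was 4.30, 4.96, 4.91 and 5.68 (2.61-fold; adjusted p = 0.00376). SCD, of fatty acid desaturation, had a 2.07-fold range (adjusted p = 0.00335) and was also lowest in pool 1 and highest in pool 4. The fatty acid synthase FASN and MVD, of the mevalonate pathway, were instead highest in pool 1, and neither passed without it (adjusted p = 0.14 and 0.122). MVD also did not pass within 1 orientation (adjusted p = 0.0747). The sterol regulator SREBF2, named after its values were seen, was 4.92, 4.46, 4.92 and 4.38 and was not called (adjusted p = 0.13).

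**Figure D5:**
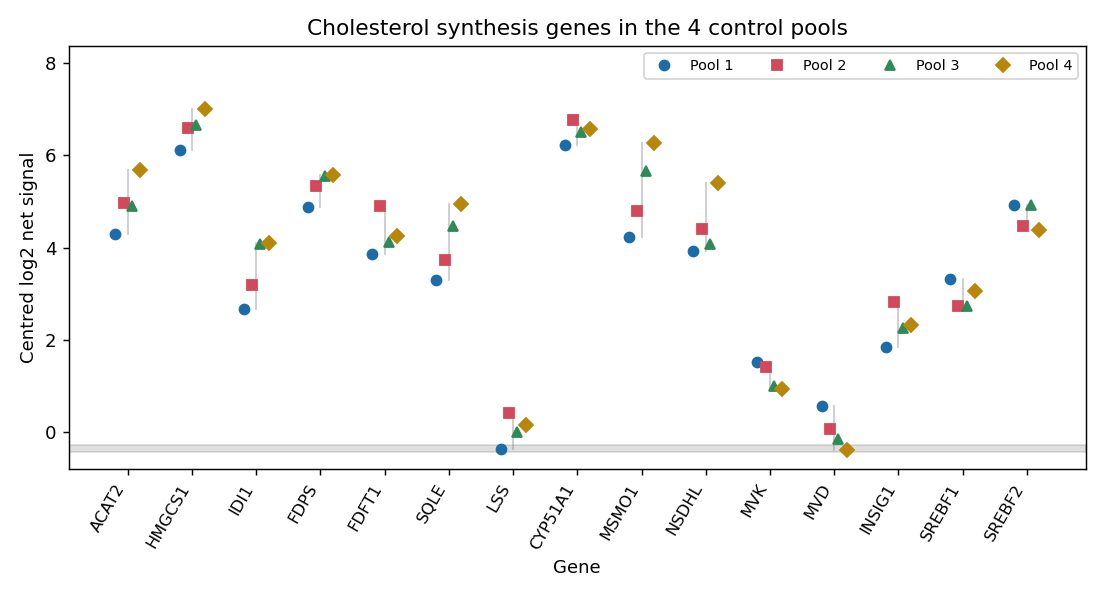
Centred log2 net signal (y axis) of 15 genes of cholesterol synthesis and its control (x axis), one symbol per control pool, with the range of the negative control medians as a grey band. Pool 1 is lowest for ACAT2, HMGCS1, IDI1, FDPS, FDFT1, SQLE, LSS, CYP51A1, MSMO1, NSDHL and INSIG1, and highest for MVK, MVD and SREBF1.

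Finally, the control RNA was compared between its dyes, since a signal that depends on the dye has a rank that does too. Of 769 probes that passed (2.91%), Cy5 exceeded Cy3 in 728 (2.75%) and Cy3 exceeded Cy5 in 41 (0.155%) at an adjusted p of 0.05 (limma, 4 arrays against 4). The 2 arrays of a pool deviated together, and with the array number as a block 10310 probes passed (39.0%). The difference grew with signal: its median was -0.03 for probes with a mean signal under 0 and 0.86 for probes above 7. RBMX, an RNA-binding protein, was 6.65 in Cy3 and 7.93 in Cy5 (difference 1.28 ± 0.13 SE, adjusted p = 0.0254), and the translation factor EIF4G2 was 6.39 and 7.66 (adjusted p = 0.0254). On the other side FASTK, a mitochondrial RNA-binding protein, was 0.76 in Cy3 and 0.26 in Cy5 (adjusted p = 0.0336), and the sulphur transferase MPST was 0.46 and -0.02 (adjusted p = 0.032). With quantile normalization 0 probes passed, and 2822 had an unadjusted p under 0.05 (limma).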

How the data were processed

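The deposited scanner tables hold spot intensities of both channels. Per the file headers these are the raw mean foreground and the median local background of each spot. The submitters' processing notes name limma, with no version given in the sources used here, and no normalized values were used. For each control channel the background was subtracted, values under 1 were set to 1, log2 was taken, and the array's median over the 43794 expression probes was subtracted. In each file 22 rows without an identifier were left out. Probes were named through the platform annotation and symbols updated through RefSeq's ARS-UCD2.0 gene table: of 15229 symbols, 14114 were current, 982 were synonyms of a current name and 133 were kept as given.

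Groups came from the titles. The series' design describes a dye swap of each pool, but no label names the pool of an array. Control arrays with the same number were taken as the dye swap of one pool, which every pool value rests on. Their deviations from the dye means correlated at 0.580 to 0.629 within 4 same-numbered pairs and at -0.433 to 0.148 in the 12 other combinations. Each pool was therefore counted once, n = 4. Pools were compared with limma 3.58.1 in R 4.3.3 (moderated F, terms for dye and pool) and dyes with limma without a block. All p-values were adjusted by Benjamini-Hochberg over the 26444 probes above background. The fits were tested on simulated data. Alternatives changed the background, the normalization, the filter on dim probes, the prior, the slide term, the probe summary, the dyes and the pools used. The comparison within 1 dye orientation, the fit without a dye term, 2 further background limits and the rescaling of gene lists were added after seeing the data.

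Genes named are the 30 of highest signal, up to 3 of the highest and 3 of the lowest members above background of each list with the genes that define it, the 12 of largest SD between pools among those called, 4 with the largest difference between dyes each way, and a short list of blastocyst genes; any others were chosen after their values were seen. The gene lists, and the comparisons made, were chosen with earlier results of these data known. Sequences and the lipid-treated channel were not used.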

Additional observations from a re-analysis of the deposited data

Results flagged for a closer look

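In 10 of 324 sets of 4 pool values, 1 pool lay so far from the other 3 that its gap, as a share of the whole range, exceeded Dixon's limit for 4 values. Chance flags about 1 in 20 such sets. The far pool was pool 1 in 4 genes and pools 2, 3 and 4 in 2 each. All values are centred log2 signals.

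FGFR1, a fibroblast growth factor receptor, was 1.156 in pool 4 and -0.037 to 0.077 in the others, but only its Cy3 array was high (2.28), and the Cy5 array of the same pool was at 0.04. CARD10 was 2.392 in pool 4 (Cy3 array 0.93, Cy5 array 3.85) and 4.868 to 5.204 in the others. In pool 2, ECHS1 of fatty acid oxidation was low at 4.138, against 4.757 to 4.862, and the junction protein JUP was high at 0.4486, against 0.1408 to 0.1867. In pool 3, the basement membrane collagen COL4A1 was 3.263, against 4.027 to 4.16, and MPST was 0.0869, against 0.2512 to 0.2784. In pool 1, B2M was 4.546, against 5.467 to 5.656, and the imprinted gene MAGEL2 was 0.3401, against -0.1169 to -0.0783. The MAGEL2 value came from the Cy5 array (0.73), with -0.05 on the Cy3 array. Also in pool 1, the zinc finger gene ZNF446 was -0.6272, against -0.1215 to -0.0305, with -1.33 on the Cy5 array and 0.08 on the Cy3 array, and the collagen COL10A1 was -0.0813, against -0.1348 to -0.1294. The COL10A1 gap was smaller than the difference between the arrays of pool 1 (-0.16 and 0.00). JUP, MAGEL2, ZNF446, COL10A1 and MPST lay within 0.7 of the median probe in every pool.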

How the results depend on the processing

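The top of the ranking moved little: 27 to 30 of the 30 brightest genes stayed among them with other background treatment, quantile normalization, 1 dye or without 1 pool, and 20 with the median of a gene's probes in place of its brightest. The number of genes above background was 7908 to 12502 under other limits. Called probes between pools numbered 8922 to 12087 with other settings and 6675 to 7562 without 1 pool, but 3615 within 1 dye orientation and 72 with the dye term left out (unadjusted p under 0.05 in 5960). The dye comparison depended on the setting. With the replicate block, which uses the pairing of the arrays, 10310 probes passed, against 769 without it. With no filter on dim probes 4635 passed. With normexp, without background subtraction and with quantile normalization 0 passed in limma (3112, 3887 and 2822 at an unadjusted p under 0.05). Without 1 pool it was 0 to 0 (4134 to 5284 unadjusted). Of the percentiles of named genes and medians of lists under the ranking alternatives, 3247 moved by less than their spread between pools and 317 by more. The causes were not tested. Limits are the 4 pools, the crowding of the brightest spots, and the small margin of dim probes over the negative controls.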

Other observations

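Some further groups of genes had signal in the control pools. Of 55 RAB genes, which direct vesicle traffic, 48 were above background and 8 lay in the upper decile, led by RAB11A of recycling endosomes at 7.41. Zinc finger genes of the ZNF series had 166 of 247 above background and 5 in the upper decile, and collagens 27 of 40 and 0. Cytokines had 21 of 49 above background. Their highest member, IL18, was at 4.34, followed by XCL2 at 2.17 and IL6 at 1.94.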
